A study of Mus musculus with 12 samples.

Results

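The 9 genes described here encode transcription factors listed for the formative or primed epiblast: Otx2, Pou3f1, Sox3, Sox4, Sox11, Zic2, Zic5, Foxd3 and Grhl2. They were found by joining the gene identifiers of the count table to symbols of the GENCODE mouse annotation, and all 9 were present among 51467 genes and passed the filter on low counts with 14731 genes. The samples were naive mouse embryonic stem cells (ESCs) in LIF and the 2i inhibitors PD0325901 and CHIR99021, and epiblast-like cells (EpiLCs) collected about 56 h after LIF and 2i were withdrawn. Both came from a single V6.5 ESC line that carries the miR-290-mCherry and miR-302-GFP reporters. Every culture received 500 µM 4-thiouridine (4sU) for 30 min, and its RNA was sequenced as the captured 4sU-labelled fraction (nascent RNA) and as rRNA-depleted total RNA, which gave 4 groups of 3 libraries. The study calls its replicates biological, the labels do not say how the cultures were kept apart, and the p-values measure the spread between these libraries.

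When pluripotent cells leave the naive state, they pass through a formative state, modelled by EpiLCs, before they become primed for lineage choice. OTX2 and POU3F1 (also named OCT6) are the textbook factors of this step, and OTX2 is known to redirect OCT4 to new enhancers. The SOX, ZIC, FOXD and GRHL proteins bind DNA through HMG box, zinc finger, forkhead and grainyhead domains, and most of these factors are used again later, in the neural plate, the neural crest or surface epithelium. The RNA level of such a gene is set by how fast RNA is made, read here from the 4sU libraries, and how fast it decays, for which the ratio of total to nascent RNA served as a relative measure. The study derives decay from this ratio by assuming steady RNA levels within a state. Whether that held for EpiLCs about 56 h after withdrawal was not tested.

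Library totals ran from 3097693 to 5385644 counts for nascent RNA and from 9300845 to 21975684 for total RNA. Levels are CPM, the counts of a gene divided by the TMM-scaled size of its library, and counting error in reads without molecular identifiers is the least error that a value can have. By the call defined below, 10 of 10 naive markers were lower in EpiLCs in each assay, where 11.2% of all genes were lower in total RNA and 13.5% in nascent RNA. Lower was not absent, as Nanog still had 266 to 270 CPM in the EpiLC total libraries. ESC replicate 3 stood apart from the other ESC replicates in both assays, and its values are set beside the results below.

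Of the 9 factors, 8 were called higher in EpiLCs in total RNA, where 16.3% of all tested genes were called higher. The same 8 were called higher in nascent RNA, where the background was 11.9%. A call required an adjusted p (limma-voom, Benjamini-Hochberg) below 0.05 together with a log2 difference beyond 1 in size. Foxd3 was called in neither assay. For the other 8, all EpiLC libraries lay above all ESC libraries in both assays, as they did for 33.5% of all genes in total RNA and 26.6% in nascent RNA. The median log2 difference over the 9 factors was 2.71 in total RNA and 2.46 in nascent RNA, against 0.02 and -0.09 over all genes. In bulk RNA, fewer cells of a type and less RNA per cell cannot be told apart.

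**Figure D1:**
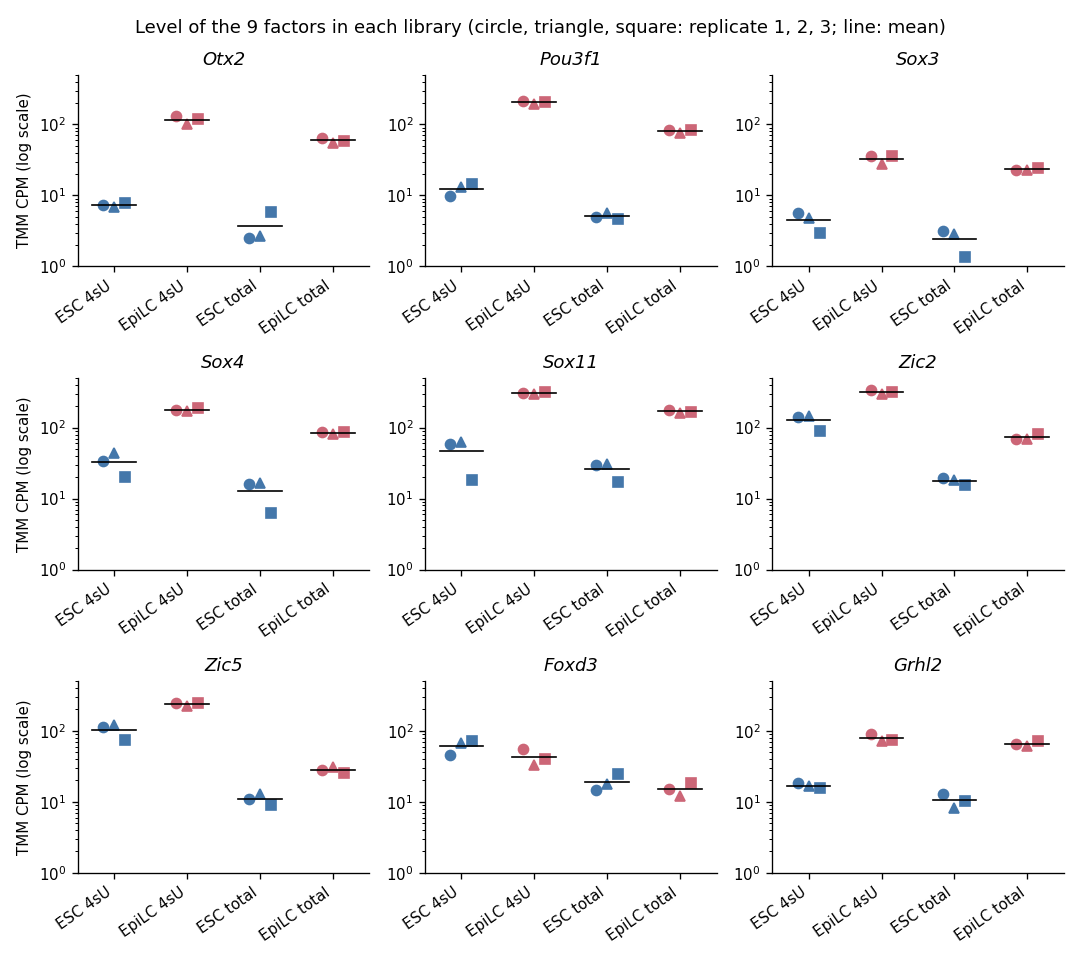
Level of each factor in each of the 12 libraries, in CPM on a log axis, with ESC and EpiLC libraries of the nascent and the total assay side by side and each point 1 library. The EpiLC points of 8 factors lie above all ESC points of the same assay, and those of Foxd3 overlap.

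Otx2 and Pou3f1 showed the largest differences of the 9. Otx2, the homeobox factor (chr14:48657679-48667513, minus strand, mm10), had 2.55, 2.72 and 5.90 CPM in the ESC total libraries and 64.8, 55.3 and 58.5 CPM in the EpiLC total libraries. In nascent RNA its levels were 7.36, 6.98 and 7.86 CPM in ESCs and 132, 99.8 and 119 CPM in EpiLCs. Otx2 was therefore low but detected in every ESC library, with ESC replicate 3 the highest of the ESC total libraries, and the groups did not overlap. The log2 difference was 4.21 ± 0.22 (SE) in total RNA (limma adjusted p = 7.7e-10) and 3.96 ± 0.26 in nascent RNA (limma adjusted p = 2.5e-08). These values put Otx2 at rank 252 of 14731 genes in total RNA and rank 214 in nascent RNA, counted from the largest increase.

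Pou3f1, a POU-domain factor (chr4:124656807-124660655, plus strand), had 4.93, 5.59 and 4.72 CPM in ESC total RNA and 83.0, 75.1 and 83.4 CPM in EpiLC total RNA. Its nascent levels were 9.81, 13.1 and 14.4 CPM in ESCs and 215, 192 and 205 CPM in EpiLCs. The replicates of Pou3f1 lay close together in every group, including ESC replicate 3. The log2 difference was 3.96 ± 0.13 in total RNA and 4.06 ± 0.14 in nascent RNA (limma adjusted p = 1.1e-11 and 8.5e-11), at ranks 292 and 192. The order of Otx2 and Pou3f1 thus differed between the assays, and the 95% confidence intervals of their differences overlapped in both (3.75 to 4.68 and 3.68 to 4.24 in total RNA, 3.41 to 4.51 and 3.75 to 4.37 in nascent RNA).

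The 3 SOX factors rose by smaller amounts. Sox3, a SoxB1 factor of early neural tissue (chrX:60891366-60893430, minus strand), had the lowest counts, from 11 to 56 reads in an ESC library. It measured 3.19, 2.82 and 1.38 CPM in ESC total RNA and 23.0, 22.6 and 24.4 CPM in EpiLC total RNA. In nascent RNA it was at 5.72, 4.83 and 2.98 CPM in ESCs and at 35.6, 27.8 and 35.9 CPM in EpiLCs. Its EpiLC libraries were all well above its ESC libraries, of which replicate 3 was the lowest in each assay. The log2 differences were 3.20 ± 0.23 (total) and 2.83 ± 0.29 (nascent), with limma adjusted p of 1.8e-08 and 1.9e-06.

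Sox4 and Sox11 are SoxC factors, known as activators in progenitors and immature neurons. Sox4 (chr13:28948919-28953713, minus strand) had 16.3, 16.4 and 6.29 CPM in ESC total RNA against 87.7, 81.7 and 85.5 CPM in EpiLC total RNA. Its nascent levels were 33.5, 44.4 and 20.1 CPM in ESCs and 175, 173 and 187 CPM in EpiLCs. Sox11 (chr12:27334264-27342574, minus strand) had 30.0, 30.5 and 17.3 CPM in ESC total RNA against 178, 163 and 168 CPM in EpiLC total RNA. In both genes ESC replicate 3 was the lowest library of each assay, while the EpiLC replicates were tight. The nascent levels of Sox11 were 57.9, 63.5 and 18.2 CPM in ESCs and 308, 299.9 and 321 CPM in EpiLCs. The log2 differences in total RNA were 2.71 ± 0.25 for Sox4 and 2.71 ± 0.26 for Sox11 (limma adjusted p = 2.9e-07 and 4.9e-07). In nascent RNA they were 2.46 ± 0.27 and 2.83 ± 0.30 (limma adjusted p = 3.4e-06 and 2.8e-06).

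Zic2 and Zic5 are zinc finger genes that lie head to head on chromosome 14 (Zic5 at chr14:122456795-122465677, minus strand, and Zic2 at chr14:122475435-122479852, plus strand). Both were already transcribed in ESCs. Zic2 had 141, 148 and 90.3 CPM in ESC nascent RNA and 335, 299 and 319.9 CPM in EpiLC nascent RNA. In total RNA it had 19.5, 18.1 and 15.4 CPM in ESCs and 68.6, 70.1 and 80.2 CPM in EpiLCs. The groups were apart in both assays, and the difference was the larger in total RNA, at 2.03 ± 0.16 against 1.34 ± 0.14 on the log2 scale (limma adjusted p = 5.8e-08 and 2.9e-06). Zic5 had 112, 121 and 74.0 CPM in ESC nascent RNA and 244, 222 and 245 CPM in EpiLC nascent RNA. Its total RNA was low in comparison, at 11.1, 13.1 and 9.04 CPM in ESCs and 27.7, 30.8 and 25.4 CPM in EpiLCs. The log2 differences of Zic5 were 1.31 ± 0.19 in total and 1.22 ± 0.15 in nascent RNA (limma adjusted p = 2.6e-05 and 9.3e-06), the smallest of the 8 called factors. With both ESC replicate 3 libraries left out, the nascent difference of Zic5 was 0.99 and fell just short of the fold threshold.

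Grhl2, a grainyhead factor of epithelial cells (chr15:37233036-37363569, plus strand), had 12.98, 8.30 and 10.3 CPM in ESC total RNA and 64.4, 61.2 and 71.8 CPM in EpiLC total RNA. Its nascent levels were 18.4, 16.6 and 15.7 CPM in ESCs and 89.1, 72.3 and 74.2 CPM in EpiLCs. All EpiLC libraries were several times above all ESC libraries, and ESC replicate 3 lay with the other ESC replicates. The log2 difference was 2.67 ± 0.14 in total RNA and 2.20 ± 0.18 in nascent RNA (limma adjusted p = 1.0e-09 and 2.2e-07).

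Foxd3, a forkhead factor known from pluripotent cells and from the neural crest (chr4:99656299-99658622, plus strand), was the exception. It had 14.5, 17.9 and 24.5 CPM in ESC total RNA and 15.4, 12.1 and 18.5 CPM in EpiLC total RNA. Its nascent levels were 46.0, 67.5 and 71.9 CPM in ESCs and 56.1, 33.1 and 39.5 CPM in EpiLCs. The groups overlapped in both assays. The log2 difference was -0.26 ± 0.24 in total RNA (95% confidence interval -0.77 to 0.26, limma adjusted p = 0.370) and -0.53 ± 0.23 in nascent RNA (-1.03 to -0.03, limma adjusted p = 0.0705). The total RNA interval excludes the threshold of 1 in either direction, whereas the nascent interval reaches just past -1.

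**Figure D2:**
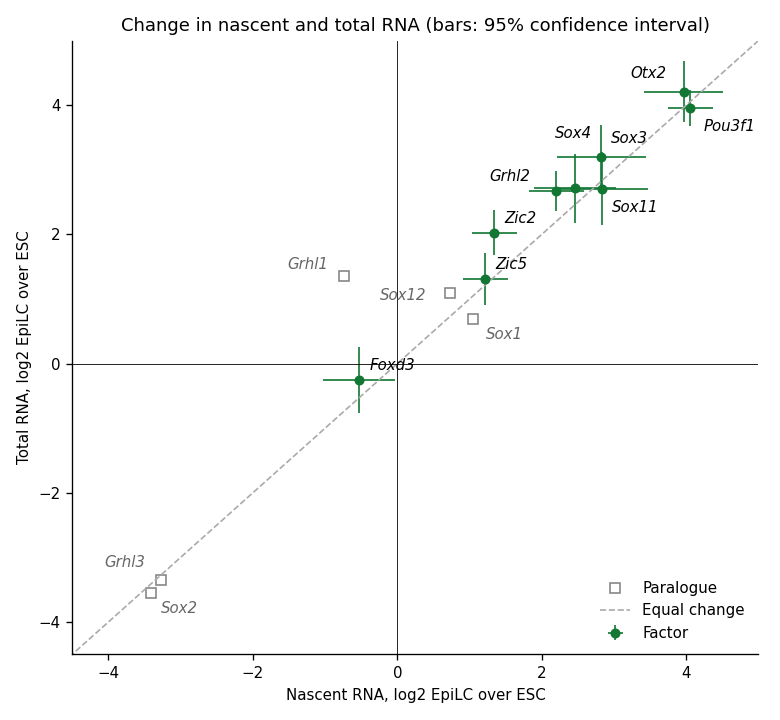
Log2 difference between EpiLCs and ESCs in total RNA against that in nascent RNA for the 9 factors (filled points, bars are 95% confidence intervals) and some of their paralogs (open squares). Of the factors, 8 lie in the upper right along the line of equal change and Foxd3 lies near 0, while Sox2 and Grhl3 lie at the lower left and Grhl1 is off the line.

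Compared per kilobase of exon, the order of the factors changed between the states. In EpiLC total RNA Zic2 was the highest at 29.9 ± 2.59 CPM per kb (SD, n = 3). Otx2 (22.2 ± 1.80), Pou3f1 (20.9 ± 1.21) and Sox11 (20.4 ± 0.933) followed with overlapping ranges, then Sox4 (17.7 ± 0.636). Grhl2 (12.3 ± 1.02) and Sox3 (11.3 ± 0.438) overlapped, as did Foxd3 (6.60 ± 1.37) and Zic5 (5.87 ± 0.563) at the bottom. In ESC total RNA the order began with Foxd3 (8.16 ± 2.18) and Zic2 (7.24 ± 0.850), whose ranges overlapped. The other 7 lay between 3.12 for Sox11 and 1.19 for Sox3, each overlapping the next in the order. Foxd3 therefore went from the top of the 9 to next to last without a called difference of its own. In nascent RNA Zic2 was first in both states, at 51.8 ± 12.9 CPM per kb in ESCs and 130 ± 7.55 in EpiLCs. Zic5, last in EpiLC total RNA, came after Zic2 and Pou3f1 in EpiLC nascent RNA, at 49.7 ± 2.65, with a range that overlapped that of Pou3f1 (53.0 ± 2.95) and that of Otx2 (43.6 ± 6.07).

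The stability comparison asks whether the ratio of total to nascent RNA differed between the states. No factor was called, where 1.54% of all genes were called in either direction (182 higher and 45 lower, or 132 and 66 under median-of-ratios scaling). The all-gene count of 227 depended on single libraries, at 69 without EpiLC 4sU replicate 1 and 658 without ESC total replicate 3, while no factor was called in either case. At an unadjusted p below 0.05, Zic2 alone of the 9 passed, where 22.9% of all genes did. Its ratio was higher in EpiLCs by 0.68 ± 0.22 on the log2 scale (95% confidence interval 0.22 to 1.145, limma adjusted p = 0.0815). With both ESC replicate 3 libraries left out this was 0.84, with a limma adjusted p of 0.000121 but still under the fold threshold. Grhl2 came next at 0.47 (-0.02 to 0.96, limma adjusted p = 0.233), against an all-gene median of 0.11. For Pou3f1 the interval was narrow, from -0.51 to 0.32. The intervals of Otx2 (-0.47 to 0.97), Zic5 (-0.42 to 0.60) and Foxd3 (-0.44 to 0.99) also stayed within 1 in both directions, whereas those of Sox3 (-0.41 to 1.16) and Sox4 (-0.53 to 1.04) reached past it. The interval of Sox11 was -0.98 to 0.73.

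Within each state, the RNA of these factors leaned to the nascent side. In ESCs 6 of the 9 were called lower in total than in nascent RNA, where 26.8% of all genes were. In EpiLCs it was 5 of 9, where 23.3% of all genes were called lower. These shares depend on the scaling of the 2 assays, since there were no spike-in reads: all-gene calls in ESCs were 3490 higher and 3953 lower, or 2660 and 4555 when scaled by library totals, which moved the all-gene median from 0.03 to -0.20. In EpiLCs the split was 3561 higher and 3428 lower, or 2670 and 3957 with the assays scaled apart. The position of a gene within the distribution does not rest on that constant.

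Zic5 had the lowest ratio of the factors in both states, with a log2 ratio of -3.17 in ESCs and -3.08 in EpiLCs. Zic2 followed at -2.81 and -2.12, then Foxd3 at -1.74 and -1.47. At the other end were Grhl2 at -0.73 and -0.25, Sox11 at -0.74 and -0.87 and Sox3 at -0.86 and -0.48. Zic5 thus lay at percentile 9.56 of all genes in ESCs and 5.40 in EpiLCs, and all 9 lay below percentile 40. The called factors in ESCs were Zic5, Zic2, Foxd3, Sox4 (-1.32), Pou3f1 (-1.25) and Otx2 (-1.22). In EpiLCs they were Zic5, Zic2, Foxd3, Pou3f1 (-1.34) and Sox4 (-1.07). Several of these calls sit at the fold threshold. Without ESC total replicate 3 the ESC ratio of Sox4 was -0.98. Without ESC 4sU replicate 3 those of Sox3 and Sox11 were -1.11 and -1.27, and without ESC total replicate 1 that of Sox3 was -1.09. The EpiLC ratio of Otx2, at -0.97, ran from -0.85 to -1.19 over the alternatives.

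The factors also differ in gene structure. Pou3f1, Sox3, Sox4, Sox11 and Foxd3 have a single exon, as do 2.79% of the 12308 tested protein-coding genes, and single-exon genes as a class had a median log2 ratio of -0.95 in ESCs, against 0.33 for genes with several exons. Ranked within the 344 single-exon genes, these 5 factors lay from percentile 24.7 (Foxd3) to 58.4 (Sox11) in ESCs. Ranked within the 11964 genes with several exons, Zic5 was at percentile 0.995 in ESCs and 0.527 in EpiLCs, and Zic2 at 1.65 and 2.59. Otx2 was at 11.95 and 12.8, and Grhl2 at 20.5 and 28.6. Among genes of their own class, then, the single-exon factors lay in the middle or lower middle, while the pair of Zic genes lay at the low extreme in both states. The part of exon number in the ratio was not tested.

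**Figure D3:**
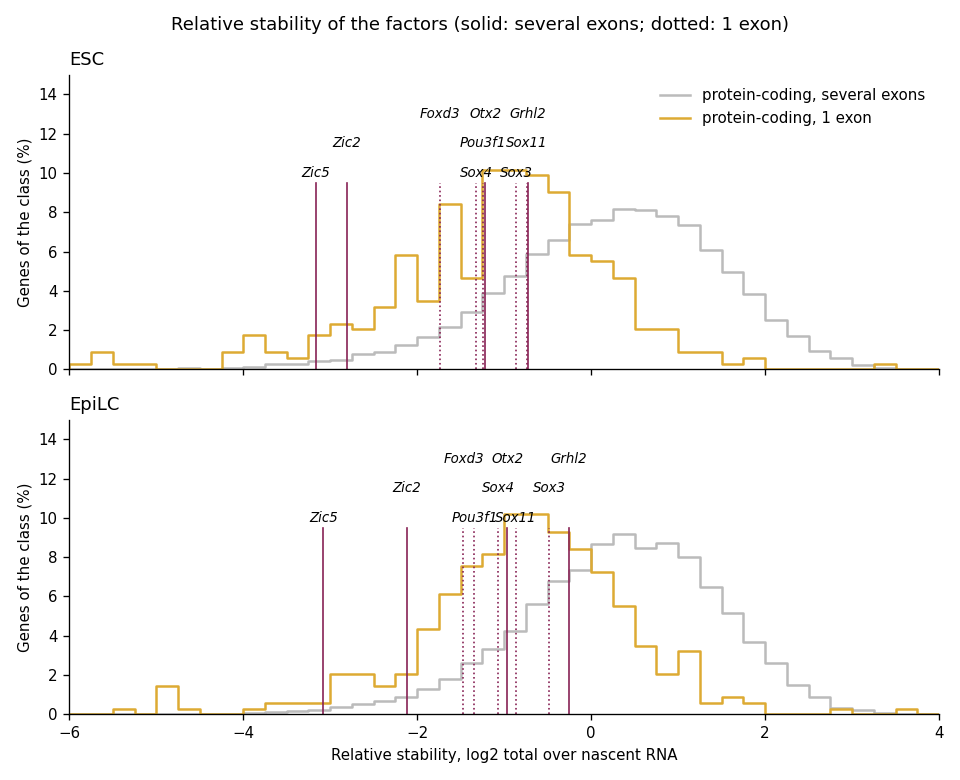
Distribution of the log2 ratio of total to nascent RNA in ESCs (top) and EpiLCs (bottom), in percent of genes per bin, for the 344 tested protein-coding genes with 1 exon and the 11964 with several exons, with vertical lines at the factors (dotted for 1 exon, solid for several). Zic5 and Zic2 lie farthest left in both states, and the single-exon factors lie within the bulk of the single-exon genes.

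Sequence elements linked to mRNA turnover were searched in the 3′ UTR of 1 transcript a gene, on the transcript strand. The heptamer TATTTAT, the core of AU-rich elements that bind decay factors, occurred in 5 of the 9 factors and in 28.9% of tested coding genes. Pou3f1 held 4 copies and Zic5 held 3, while 3.75% of coding genes held 3 or more. Among genes with a 3′ UTR from 0.8 to 1.25 times as long, 0.759% held at least as many copies as Pou3f1 (n = 1977) and 6.03% as many as Zic5 (n = 1707). Sox4, Sox11 and Grhl2 held 1 copy each, as 49.5%, 74.1% and 48.8% of genes with a 3′ UTR of like length held 1 or more, and Otx2, Sox3, Zic2 and Foxd3 held none. Shown because they are the factors with the most copies, these are 1 site of Pou3f1 (chr4:124659634-124659663, plus strand) and 2 of Zic5 (chr14:122459196-122459225 and chr14:122456949-122456978, minus strand), with the heptamer in capitals:
Pou3f1 site 1: tttacggttttTATTTATtcgtggagcctc
Zic5 site 1: ctaattagcccTATTTATtcagtatgaaac
Zic5 site 3: tgctacaggttTATTTATtatgaaacaaag

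Some miRNAs of the miR-290 and miR-302 clusters, which the reporters of this line mark, share the seed AAGUGCU. The seed is bases 2 to 8 of the mature strand (capitals below, from RefSeq, GRCm38.p6). The RefSeq entries searched held 5 mouse miRNAs with this seed in these clusters, which need not be all that share it. Of these, 1 of each cluster is shown. The complement of the seed, AGCACTT, occurred in the 3′ UTR of Grhl2 (2 copies) and Zic5 (1 copy) among the 9, and in 16.3% of tested coding genes. As many as 2 copies were held by 2.98% of coding genes, and by 5.78% of the 1626 genes with a 3′ UTR of like length to that of Grhl2. At least 1 copy was held by 29.2% of genes with a 3′ UTR of like length to that of Zic5. The Grhl2 sites were at chr15:37362320-37362349 and chr15:37362711-37362740 (plus strand) and the Zic5 site at chr14:122459008-122459037 (minus strand), with the match in capitals. Grhl2 and Zic5 were not called in the stability comparison, as given above. A match describes the sequence, not binding.
mmu-miR-294-3p: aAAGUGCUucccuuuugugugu
mmu-miR-302b-3p: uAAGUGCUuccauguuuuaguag
Grhl2 site 1: tttgtctgcgaAGCACTTtgatgttttacc
Grhl2 site 2: ccctgtgctatAGCACTTggggctagctgc
Zic5 site: ctcagtggtagAGCACTTgcctagcatgca

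Each factor belongs to a family of related DNA-binding proteins, and in several of those analysed the makeup of the pool changed. Of 17 paralogs of the factors, 9 passed the filter. In total RNA 2 were called higher and 4 lower, where the background for lower calls was 11.2%, and in nascent RNA 1 was higher and 5 lower (13.5%). In the SoxB1 family, whose members can replace each other in pluripotent cells, Sox2 made up 98.4% ± 0.321 (SD, n = 3) of the summed CPM per kb in ESC total RNA and 56.6% ± 2.71 in EpiLC total RNA. Sox3 went from 0.492% ± 0.159 to 32.0% ± 0.520, and Sox1 from 1.15% ± 0.478 to 11.4% ± 2.19. This was a shift within a shrinking pool, which went from 238 ± 20.7 to 35.3 ± 1.51 CPM per kb. Sox2 itself fell by 3.55 ± 0.21 on the log2 scale in total RNA and by 3.41 ± 0.21 in nascent RNA (limma adjusted p = 2.9e-09 and 1.7e-08). Sox1, an early neural factor, differed by 0.69 in total RNA, under the fold threshold, and was called at 1.04 ± 0.24 in nascent RNA (limma adjusted p = 0.0025). The latter was 0.82 without ESC 4sU replicate 1 and 0.89 without EpiLC 4sU replicate 2.

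In the SoxC family the pool grew, from 9.21 ± 2.30 to 45.4 ± 1.86 CPM per kb of total RNA. Sox12 took 38.2% ± 8.69 of it in ESCs and 15.95% ± 0.413 in EpiLCs, although Sox12 itself rose (log2 1.09 ± 0.18, limma adjusted p = 0.00011). Sox11 took 33.6% ± 1.58 and then 45.0% ± 0.209, and Sox4 took 28.3% ± 7.12 and then 39.1% ± 0.519. In nascent RNA the share of Sox12 was 57.5% ± 3.95 in ESCs and 26.2% ± 1.67 in EpiLCs, so that Sox12 lost share in both assays.

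The grainyhead family turned over. Grhl3, an epidermal factor, held 67.2% ± 0.890 of the ESC total pool and 4.10% ± 0.901 of the EpiLC total pool, and fell by 3.36 ± 0.24 on the log2 scale (limma adjusted p = 2.4e-08). Grhl2 went from 18.5% ± 3.87 to 74.3% ± 0.185. The summed pool of total RNA was 10.7 ± 1.45 CPM per kb in ESCs and 16.6 ± 1.33 in EpiLCs. In nascent RNA it was Grhl1 that led the ESC pool, at 48.7% ± 4.94, with Grhl3 at 32.5% ± 2.93. Their shares of the EpiLC nascent pool were 24.3% ± 4.37 and 2.78% ± 1.03, and that of Grhl2 went from 18.8% ± 2.02 to 72.9% ± 5.35. Grhl1 was called higher in total RNA (1.35 ± 0.21, limma adjusted p = 6.2e-05) while its nascent RNA was lower, if under the fold threshold, at -0.74 ± 0.22 (limma adjusted p = 0.011).

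In the other families a single gene held most of the pool on average in both states. Otx2 held 80.4% ± 3.18 of Otx family total RNA in ESCs and 99.1% ± 0.334 in EpiLCs. Foxd3 held 90.8% ± 3.72 and 95.5% ± 1.44 of the FoxD total RNA. Pou3f1 held 69.2% ± 21.8 of the class III POU pool in ESC total RNA and 96.6% ± 1.02 in EpiLC total RNA. The large SD in ESCs came from replicate 3, in which Pou3f2, a neural paralog, was 14.6 times the mean of the other 2 ESC total libraries (71 reads against 7 and 11), and 7.36 times in nascent RNA. In that total library Pou3f1 held 44.1% of the pool and Pou3f2 held 44.9%.

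**Figure D4:**
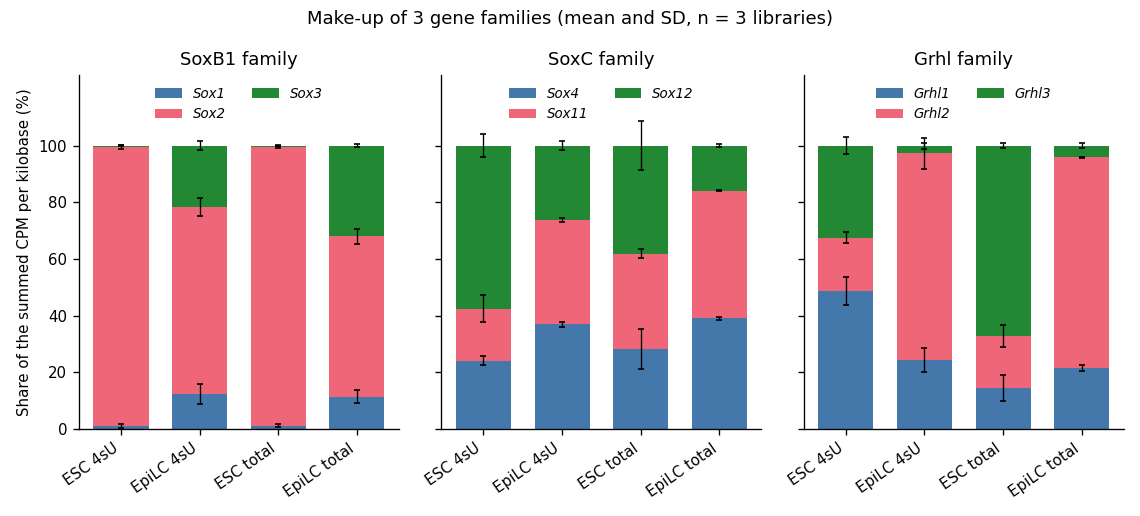
Share of each gene in the summed CPM per kb of the SoxB1, SoxC and Grhl families, in percent, stacked by group (mean of 3 libraries, bars are the SD of each share). Sox2 gives way in part to Sox3 between ESCs and EpiLCs. Grhl3 gives way to Grhl2 in total RNA, while in nascent RNA both Grhl1 and Grhl3 lose share to Grhl2.

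Of 12 other genes of the formative state, all passed the filter, and 7 were called higher in each assay (against 16.3% and 11.9% of all genes) and none lower, with a median log2 difference of 2.01 in total RNA and 2.23 in nascent RNA. Dnmt3b, a de novo DNA methyltransferase, rose by 3.20 ± 0.09 in total RNA and 3.33 ± 0.13 in nascent RNA. The secreted ligands Fgf5 and Fgf8 had 0 to 4 and 2 to 6 reads in an ESC total library, and 369 to 484 and 266 to 296 in an EpiLC total library. Fgf15 (4.06 ± 0.29 in total RNA), the kinase gene Pim2 (4.07 ± 0.16) and the zinc finger gene Sall2 (2.91 ± 0.09) rose as well. Dnmt3a was called at 1.10 ± 0.14, which was 0.92 without ESC total replicate 3. Lef1, the WNT effector, was not called (1.05 ± 0.54, limma adjusted p = 0.101), nor were Cdh2 (0.42), Tead2 (0.88), Etv4 (-0.58) and Nodal (0.69). Relative to the mean of ESC replicates 1 and 2, Lef1 in ESC replicate 3 was at 0.152 in nascent and 0.313 in total RNA.

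Genes of the epithelial program that GRHL2 is known to maintain were followed as another list. All 10 passed the filter, and 6 were called higher in each assay, again against 16.3% and 11.9% of all genes, and none lower. Esrp1, an epithelial splicing regulator, went from 3.24 to 5.74 CPM in the ESC total libraries to 144 to 154 CPM in the EpiLC total libraries (log2 5.02 ± 0.15). The claudin genes Cldn6 and Cldn7 rose by 3.60 ± 0.11 and 3.64 ± 0.15, Epcam by 1.94 ± 0.11 and Rab25 by 1.98 ± 0.24 in total RNA. Tmem54 had 5 to 8 reads in an ESC total library and 182 to 241 in an EpiLC total library. Cdh1, encoding E-cadherin, was higher by 0.78 in total RNA, under the fold threshold, and called at 1.04 in nascent RNA, which was 0.94 without ESC 4sU replicate 1. Spint1 (-0.79), Cldn4 (0.30) and St14 (0.43) were not called in total RNA. Cldn7 was the only gene of the list called in the stability comparison.

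Because several factors also mark later cell types, marker lists of those were read in the same libraries. Of 8 neuroectoderm markers 4 passed the filter, and their summed total RNA went from 103 to 150 CPM in ESCs to 454 to 497 CPM in EpiLCs. Nes, a marker of neural progenitors, rose (log2 3.16 ± 0.27) and made up most of the EpiLC sum. The neuronal tubulin gene Tubb3, at 55.2 to 59.2 CPM in ESC total RNA, was not called (log2 -0.27). Pax6 had 2 to 7 reads in an ESC total library and 87 to 108 in an EpiLC total library. The neuronal determinants Olig3 and Neurog2 had at most 4 reads in any library. Of 4 neural crest markers, 2 passed, and the 4 summed to 2.37 to 3.24 CPM in ESC and 2.29 to 3.46 CPM in EpiLC total RNA. Tfap2b had 0 to 2 reads. Sox10, under the filter, had 4 to 5 reads in an ESC total library and 18 to 23 in an EpiLC total library. The nascent sum of the 4 was 23.9 to 40.7 CPM in ESCs and 6.36 to 8.90 in EpiLCs. Tfap2a was lower in nascent RNA by a log2 difference of -2.20 and Snai2 by one of -2.83, and Tfap2a was also called lower in total RNA (-1.87). The 8 mesendoderm markers (3 passed) summed to 17.5 to 28.3 CPM in ESC and 22.0 to 33.6 CPM in EpiLC total RNA, and to 22.2 to 30.5 and 48.7 to 105 CPM in nascent RNA. Of these, T (log2 2.35 ± 0.63) and Mixl1 (2.51 ± 0.33) rose in total RNA and Eomes was not called (-0.23). T had 2.55, 2.26 and 0.197 CPM in ESC total replicates 1, 2 and 3, and 5.31 to 8.75 CPM in the EpiLC total libraries. The 6 primitive endoderm markers (4 passed) summed to 5.04 to 11.9 and 18.2 to 21.3 CPM in total RNA. Dab2 rose (4.87 ± 0.48), Sox17 fell (-4.13 ± 0.58), Pdgfra was not called (-0.11), and Gata4 was called at 1.24, which was 0.92 without ESC total replicate 1. The 8 fibroblast markers (3 passed) summed to 3.88 to 4.78 and 14.9 to 19.7 CPM in total RNA, with Dcn at 0 reads in all ESC libraries and 40 to 56 reads in an EpiLC total library. Some markers of neuroectoderm, mesendoderm, primitive endoderm and fibroblasts thus moved in the same direction as the 8 factors while others did not. Of the neural crest markers that passed the filter, none was called higher in either assay. The part of these markers in the result was not tested.

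ESC replicate 3 touched the factors unequally. It was the lowest of the ESC libraries in both assays for Sox3, Sox4, Sox11, Zic2 and Zic5, 5 of 9 where 23.0% of all genes behaved in this way. Relative to the mean of replicates 1 and 2, Sox4 was at 0.515 in nascent and 0.385 in total RNA, and Sox11 at 0.299 and 0.573. Sox3 was at 0.565 and 0.458. Otx2 went the other way in total RNA, at 2.24, with 1.10 in nascent RNA, and Foxd3 was at 1.27 and 1.51. Pou3f1 (1.26 and 0.898) and Grhl2 (0.898 and 0.970) were near 1. Leaving both ESC replicate 3 libraries out gave total RNA differences of 4.47 for Otx2, 3.91 for Pou3f1, 2.95 for Sox3, 2.36 for Sox4 and 2.48 for Sox11, so that all 8 calls in total RNA held. In nascent RNA 7 of the 8 held.

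**Figure D5:**
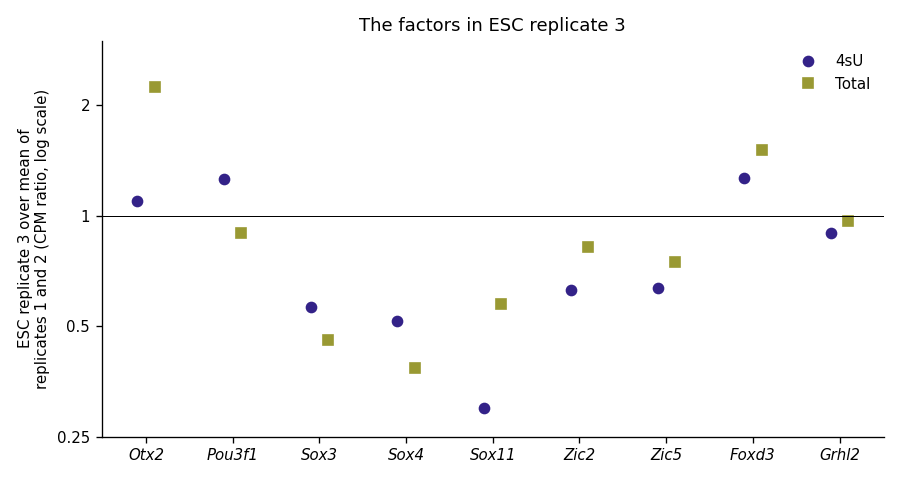
Level of each factor in ESC replicate 3 divided by the mean of ESC replicates 1 and 2, on a log axis, for nascent and total RNA. Sox3, Sox4 and Sox11 lie well under 1 in both assays, and Otx2 in total RNA lies at 2.24.

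The gene outside the 9 with the most similar profile was found for each factor as the smallest Euclidean distance over the 12 libraries between centred log2 CPM, among 14721 genes. For Otx2 the nearest were Shisa3 (distance 0.92), Irs1 (1.02) and Mfap3l (1.09). Irs1 was also nearest to Pou3f1 (0.98). The others were Aff3 for Sox3 (0.98), Fgfbp1 for Sox4 (0.72), Ccdc85a for Sox11 (0.90), Zyx for Zic2 (0.75), the miR-17 cluster host transcript Mir17hg for Zic5 (0.78), Zfand2a for Foxd3 (0.85) and Trim21 for Grhl2 (0.57). Among the factors themselves, Otx2 and Pou3f1 were each other's nearest (1.26), as were Sox3 and Sox11 (1.12) and Zic2 and Zic5 (1.52). Foxd3 was far from all others, with Zic2 the nearest at 4.20.

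Transcripts that overlap or adjoin the factors had at most 60 reads in a library. That count was reached by Gm12688, a noncoding gene 1316 bases from Foxd3 on the opposite strand, with 22 to 60 reads in the ESC total libraries and 23 to 30 in the EpiLC total libraries. Pou3f1 overlaps the antisense gene Gm2164 by 363 bases and Sox4 overlaps Gm26735 by 2753 bases on the opposite strand. Counting was strand-specific, so such reads were kept apart by the kit and the setting. Gm2164 had at most 16 reads and Gm26735 at most 13 in any library. Grhl2 shares 760 bases with Gm16137 on its own strand, and this gene had at most 10 reads, while Gm16136, which overlaps Grhl2 by 124 bases on the opposite strand, had at most 23. Between Zic5 and Zic2, the noncoding transcript 2610035F20Rik averaged 3.39 CPM in ESC and 7.93 CPM in EpiLC nascent RNA, here by library totals without TMM scaling.

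Promoter windows from 250 bases before to 50 after the start were listed in RefSeq (GRCm38.p6) for 5 of the 9 factors, 8 windows in all. ATGCAAAT, TATAAA and CCAAT, searched on both strands, occurred in 0, 1 and 3 of the 8 windows. Over 32851 promoter windows their shares were 1.74%, 13.6% and 37.4%. TAATCC, the hexamer bound by OTX-type homeodomains, was searched likewise and occurred in 7.06% of those windows. Of the 8 windows, 1 held it, a window of Otx2 that lies inside the annotated gene (chr14:48665060-48665359). A count of 1 in 8 does not set the factors apart from that share. The match lay at chr14:48665303-48665332 (minus strand) on the opposite strand, so that it reads as its reverse complement in capitals:
Otx2 promoter: cgtgtgcccctcGGATTAtctcgttagttt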

How the data were processed

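RNA of mouse ESCs and EpiLCs was sequenced as 4sU-labelled and as total RNA, 3 libraries a group. The authors deposited raw read counts per gene: per the study's methods, adapters were trimmed with cutadapt 1.14, reads were aligned to mm10 with STAR 2.5.3a keeping unique positions, and reads over exons of GENCODE M14 genes were summed by strand with featureCounts 1.5.3. Reads that match several genes are lost, which can lower genes with close copies. The 92 spike-in entries had 0 counts in every library, so ratios of total to nascent RNA are relative.

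A gene was tested where 3 or more libraries reached 3 CPM (14731 of 51467). Counts were TMM-scaled (edgeR 4.0.16) and fitted with limma-voom (limma 3.58.1, R 4.3.3), with 4 group means over all 12 libraries. Contrasts were EpiLC against ESC in total and in nascent RNA, their difference (stability change), and total against nascent RNA within each state. P-values were adjusted over all genes by the Benjamini-Hochberg method. Calls used an adjusted p under 0.05 and a log2 difference over 1. The fit was tested on simulated data. Log2 ratios use a prior count of 0.5, and the counting error of a gene follows its own reads, which for Zic2, Zic5 and Foxd3 were fewer in most total than nascent libraries. The 9 factors and the gene lists were chosen with earlier results of these data known, so list counts describe and do not test. Named were the 9 factors, kept genes of the lists, and the nearest genes by profile. Remarks on single paralogs, list markers and neighbouring transcripts under the filter were chosen after their values were seen.

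Transcript features came from a later GENCODE release than that of the counts, on the same build. Alternatives were other scalings, filters, tests (edgeR quasi-likelihood, DESeq2 1.42.0), sample weights, a replicate block, the adjusted p alone, leaving out each library, and, chosen after seeing the data, leaving out both ESC replicate 3 libraries. Shares within the Zic family are not reported here.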

Additional observations from a re-analysis of the deposited data

Results flagged for a closer look

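In 3 of the named genes the change in total RNA differed from the change in nascent RNA by the test of that difference (limma-voom, Benjamini-Hochberg adjusted p), and none of them is one of the 9 factors. Grhl1, the paralog of Grhl2, had a stability change of 2.09 ± 0.31 (SE) on the log2 scale (adjusted p = 0.0031). It measured 26.0, 27.4 and 33.6 CPM in ESC nascent RNA and 14.6, 19.7 and 16.9 CPM in EpiLC nascent RNA, but 3.36, 5.28 and 7.67 CPM in ESC total RNA and 12.7, 12.03 and 12.9 CPM in EpiLC total RNA. The groups were apart in both assays and in opposite directions. Cldn7, a tight junction gene, had a change of -2.45 ± 0.51 (adjusted p = 0.017). It rested on 2, 5 and 7 reads in the ESC nascent libraries, and without ESC 4sU replicate 1 it was -1.95 and no longer called. Dcn, a matrix proteoglycan gene on the fibroblast list, had a fitted change of 3.22 ± 0.64 (adjusted p = 0.015), which depends on the prior count because all 6 ESC libraries were at 0 reads. Its EpiLC libraries had 6, 6 and 8 reads in nascent RNA and 40, 56 and 47 in total RNA, and edgeR's quasi-likelihood test gave 1.55 with no call.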

How the results depend on the processing

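Over 24 alternatives, the counts of called factors stayed within 1.5 times the reported ones in 119 of 120 comparisons. With the adjusted p alone, 8 of 9 factors were called lower in total than in nascent RNA in EpiLCs, where 5079 of 14731 genes were. In ESCs all 9 were by that rule, where 5731 of 14731 genes were. The ESC calls gained were Sox3, Sox11 and Grhl2 (limma adjusted p = 0.027, 0.045 and 0.0028). Leaving out 1 library at a time left 8 factors called in total RNA, 8 in nascent RNA and 0 in stability, with 5 to 8 in the ESC ratio and 5 to 6 in the EpiLC ratio. In those fits, of 14443 to 14672 genes, lower calls over all genes ran from 3799 to 4028 in the ESC ratio and from 3274 to 3675 in the EpiLC ratio. Of 1080 single values of the factors, 1038 kept direction and call, 5 lost and 26 gained a call, and 11 changed sign. All sign changes were in the stability change, for which no factor was called. That of Zic5 was -0.0002 with no filter on low counts, that of Otx2 -0.0010 by DESeq2, and that of Sox11 0.16 without both ESC replicate 3 libraries. With 1 library left out it ran from -0.024 to 0.51 for Otx2, -0.27 to 0.081 for Pou3f1, -0.082 to 0.47 for Sox4, -0.52 to 0.27 for Sox11 and -0.12 to 0.22 for Zic5. The causes were not tested. The log2 difference of Otx2 in total RNA stayed between 4.00 and 4.48 over all alternatives and that of Foxd3 between -0.46 and -0.08.

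Per the study's methods, each labelled sample was split into both assays, and the titles number the libraries, but no source says that a number marks 1 extract. Deviations of same-numbered 4sU and total libraries correlated by 0.17, 0.30 and 0.41 in ESCs and by 0.07, 0.03 and 0.02 in EpiLCs. In ESCs each 4sU library correlated best with the total library of its own number, but ESC total replicate 1 correlated best with 4sU replicate 2 (0.30). EpiLC 4sU replicate 3 correlated best with total replicate 2 (0.05). The unblocked fit was kept because no source states the pairing, and blocked fits are given beside it. The replicate block as a fixed term changed no call of a factor, with 8 called in each assay and 0 in stability, where Zic2 was at 0.69 (limma adjusted p = 0.0579, or 0.0305 as a random block). Over all genes it moved stability calls from 227 to 354, and to 485 as a random block, while sample weights gave 846 and leaving out both ESC replicate 3 libraries 779. Depth limits Sox3 and Otx2 most, whose ESC nascent libraries held 11 to 28 and 29 to 39 reads.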
